A study of Mustela putorius furo with 8 samples.

Results

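DUOX1, DUOX2, DUOXA1 and DUOXA2 were taken from the gene table of a ferret pancreatic ductal epithelial cell data set by their symbols, and these 4 genes are all members of the group among 27912 genes counted. DUOX1 and DUOX2 are the dual oxidases, NADPH oxidases that sit in the apical membrane of thyroid, airway and gut epithelium and release hydrogen peroxide at the cell surface. DUOXA1 and DUOXA2 are their maturation factors, membrane proteins of the endoplasmic reticulum without which the oxidases do not reach the cell surface in active form, and DUOX1 is usually paired with DUOXA1 and DUOX2 with DUOXA2. In airway secretions the hydrogen peroxide is used by lactoperoxidase to oxidise thiocyanate, an anion that can pass through CFTR.

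The cells came from the pancreas of newborn ferrets aged 1 to 3 days that were either wild type (WT) or homozygous for a disrupted CFTR gene (CFTR KO/KO, called CF here), with several animals pooled for each genotype. Both groups were passage 10 cultures, grown in PneumaCult-ALI medium on transwell inserts coated with matrix of 804G cells, and were kept at the air-liquid interface (ALI) for 2, 5, 7 or 9 days. Cells were released with Accutase, dead cells were removed, and mRNA was counted in droplets by molecular identifiers (UMIs). Each combination of genotype and day was 1 library, so no difference between genotypes or days has a replicate check and no test of one was made. The intervals below are exact 95% intervals that cover counting error only.

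The 4 genes are neighbours in the ferret genome. In the RefSeq table of assembly ASM1176430v1.1 DUOX2 spans bases 11435929 to 11455452, DUOXA2 11455480 to 11459203, DUOXA1 11459491 to 11468992 and DUOX1 11469028 to 11501540 of a chromosome that the table does not name. All are protein-coding, no other gene lies between them, and the group covers 65612 bases from the first to the last. DUOX2 and DUOXA2 are 27 bases apart, DUOXA2 and DUOXA1 287 bases, and DUOXA1 and DUOX1 35 bases, so each oxidase lies beside its own maturation factor. The strand on which reads were assigned was not given in the sources used here. Whether reads near the gene ends were counted for a neighbour was not tested. This limit also holds where each oxidase is compared with its own factor below.

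The 8 libraries held 32945 retained cells of 44243 barcodes, from 1607 cells at CF day 7 to 6224 at WT day 2, with 34735952 to 114585136 UMIs a library and a median of 14949 to 23427 UMIs a cell. In the CF day 7 library 411 of 1607 cells had fewer than 3000 UMIs. Any pair of libraries shared 1 to 14 cell barcodes, at most 0.40% of the smaller one. The epithelial label held, with 8 of 8 epithelial markers at or above 1 CPM (a gene's UMIs scaled to counts-per-million of the total) in every library and a summed level of 7881 to 10361 CPM. Leukocyte markers summed to 21.0 CPM at CF day 2 and to 3.90 to 9.34 CPM in the other libraries, with 1 of 5 at or above 1 CPM. At least 2 of PTPRC, CD3E and CSF1R had no UMI in each library. Fibroblast markers summed to 1.51 to 6.93 CPM in the 4 WT libraries and CF days 2 and 5 and to 27.8 and 20.0 CPM at CF days 7 and 9, with 1 to 3 of 5. Markers of endothelium, endocrine cells, ciliated cells and acinar enzymes summed to at most 0.524 CPM. Only 2 of the 5 acinar enzyme genes had a row among the genes counted, so the others were not checked. CFTR, the disrupted gene, was counted at 6.57, 16.9, 15.9 and 29.5 CPM in WT at days 2, 5, 7 and 9 and at 2.50, 8.69, 11.1 and 11.4 CPM in CF. UMIs of the 3′ part of a transcript do not show whether the disrupted part is present, so these levels do not check the genotype labels. The study's methods state that CFTR KO/KO ferrets make neither CFTR mRNA nor protein. Why UMIs of the gene were counted in CF libraries was not tested.

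DUOX1 stood highest at day 2 in both genotypes, and its CPM was lower at each later day. In WT it stood at 65.0, 35.1, 33.3 and 22.9 CPM at days 2, 5, 7 and 9, and in CF at 73.4, 36.5, 31.4 and 22.6 CPM. The WT step between days 5 and 7 was small, with day 5 at 1.05 times day 7 (1.001 to 1.11). Under the alternative scalings described below (TMM and DESeq2 size factors) WT day 7 was not below WT day 5. Summed over whole libraries, the day 9 level was 0.352 (0.334 to 0.370) of the day 2 level in WT and 0.307 (0.288 to 0.327) in CF. At day 2 the CF level was 1.13 times the WT level (1.09 to 1.17), while at days 5, 7 and 9 the ratios of 1.04, 0.942 and 0.986 had intervals that included 1. The deposited classes went opposite ways behind these ratios. At day 7 the CF to WT ratio was 0.616 (0.473 to 0.790) in cells labelled ductal, 0.628 (0.507 to 0.771) in those labelled centroacinar progenitor and 1.2 (1.06 to 1.36) in those labelled centroacinar, where it was also above 1 at day 5 (1.53, 1.36 to 1.71) and day 9 (1.29, 1.17 to 1.43). In the order of the 8 levels, WT and CF of the same day were neighbours whose intervals overlapped at days 5, 7 and 9.

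DUOXA1, the maturation factor of DUOX1, took a similar course. It was counted at 23.6, 13.5, 14.1 and 10.3 CPM in WT and at 20.5, 13.1, 11.5 and 7.98 CPM in CF. Day 9 was 0.437 (0.404 to 0.472) of day 2 in WT and 0.389 (0.348 to 0.433) in CF. The CF level was below the WT level at day 2 (ratio 0.870, 0.821 to 0.921), day 7 (0.810, 0.721 to 0.909) and day 9 (0.774, 0.686 to 0.872), and at day 5 the ratio of 0.970 had an interval from 0.892 to 1.05. In cells labelled centroacinar the direction was the other one, with ratios of 1.66 (1.36 to 2.03) at day 5 and 1.28 (1.08 to 1.51) at day 9 and an interval that included 1 at day 7.

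**Figure D1:**
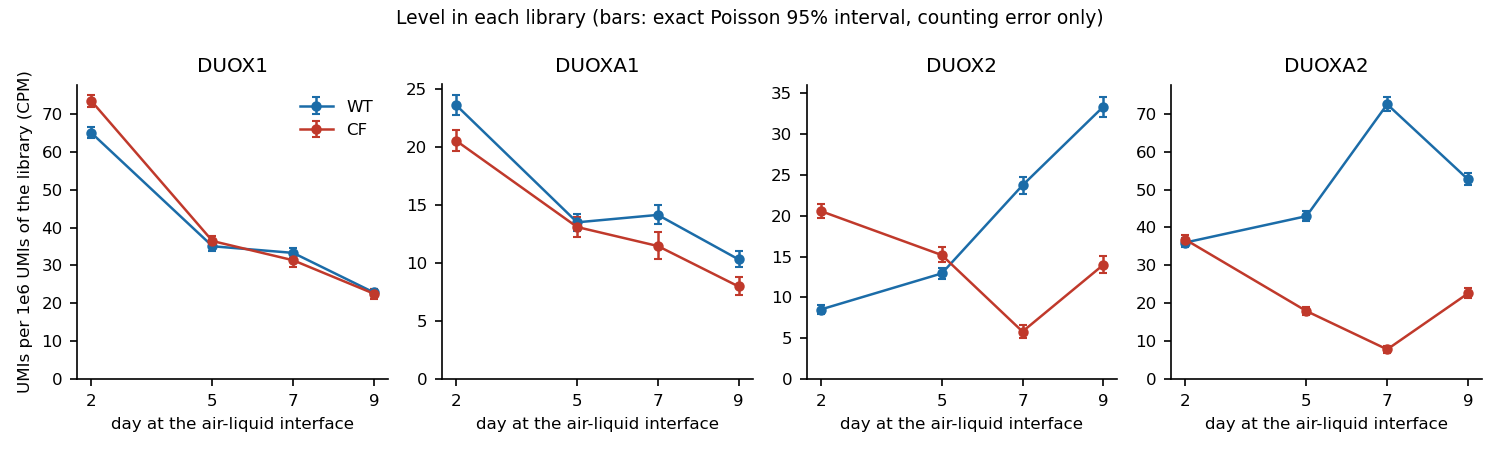
Level of DUOX1, DUOXA1, DUOX2 and DUOXA2 in CPM (vertical axis) by day at the air-liquid interface (horizontal axis, days) in the 4 WT and the 4 CF libraries, with exact Poisson 95% intervals as bars. DUOX1 and DUOXA1 are lower at day 9 than at day 2 in both genotypes, while DUOX2 reaches 33.3 CPM at WT day 9 and 5.82 CPM at CF day 7.

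DUOX2, the inducible dual oxidase of gut and airway, took different courses in the 2 genotypes when summed over all cells of a library. In WT it was counted at 8.52, 12.9, 23.7 and 33.3 CPM at days 2, 5, 7 and 9, higher at each day than at the day before, and in CF at 20.6, 15.2, 5.82 and 14.0 CPM, lowest at day 7. The day 9 level was 3.91 times the day 2 level in WT (3.64 to 4.21) and 0.679 times in CF (0.623 to 0.741). CF was above WT at day 2 (2.42, 2.24 to 2.61) and slightly at day 5 (1.17, 1.08 to 1.27), and below it at day 7 (0.245, 0.211 to 0.283) and day 9 (0.419, 0.385 to 0.456). With equal weight for each deposited class of at least 50 cells in both libraries, the day 2 ratio was 1.43 and the day 5 ratio 0.867, on the other side of 1. This weighting counts every cluster under its deposited name, also those whose names were not kept below. At day 5 the DUOX2 ratio was 1.82 in ductal, 0.359 in centroacinar and 1.09 in progenitor cells under the deposited names. In kept clusters it was 1.07, 0.363 and 1.60 in the same order, and equal weights over kept clusters alone were not used. With equal class weights the day 9 to day 2 ratio was 1.71 in WT and 0.844 in CF. The WT ratio then covers cells labelled ductal and centroacinar progenitor only, as WT day 2 had 29 centroacinar cells. Centroacinar cells, 43.6% of WT day 9, entered the CF ratio but not the WT ratio. The CF day 7 level rested on 202 UMIs in the library with the fewest cells, and the CF level at day 9 was again 2.40 times that of day 7 (2.05 to 2.83). The CF day 2 library, where DUOX2 was above WT, also had the highest leukocyte marker sum, 21.0 CPM against 3.90 CPM at WT day 2. The part of this in the difference was not tested.

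DUOXA2, its maturation factor, was counted at 36.0, 43.0, 72.5 and 52.7 CPM in WT and at 36.8, 17.9, 7.83 and 22.6 CPM in CF. WT and CF had overlapping intervals at day 2 (ratio 1.02, 0.977 to 1.07) and CF was lower at the 3 later days, at 0.417 (0.392 to 0.444), 0.108 (0.0953 to 0.122) and 0.428 (0.401 to 0.457) of WT. WT was highest at day 7 and CF lowest at day 7, so that day held the widest gap of any member. In WT day 9 was 1.46 times day 2 (1.40 to 1.53) and in CF 0.614 times (0.574 to 0.656), and CF day 9 was 2.88 times CF day 7 (2.52 to 3.30). The WT ratio was 0.659 with equal class weights, on the other side of 1, over cells labelled ductal and centroacinar progenitor only. The CF libraries of days 7 and 9, where DUOX2 and DUOXA2 were lower than in WT, were those with the higher fibroblast marker sums, 27.8 and 20.0 CPM against 4.75 and 5.79 CPM in WT. At day 5, where DUOXA2 was also lower in CF, that sum was 1.51 CPM in CF and 4.04 CPM in WT. The part of fibroblast content in the differences was not tested. In sums over a library, fewer cells with the transcript and less transcript per cell cannot be told apart.

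Against all genes, a gene was counted as past 2-fold where the ratio of CPM + 1 was at least 2 in either direction and 1 of the libraries reached 5 CPM. At day 2 DUOX2 was the 1 member past 2-fold higher in CF, where 4.46% of 9507 genes were past it higher and 4.55% lower. At day 5 DUOXA2 was past it lower, against 2.48% of 9745 genes higher and 4.57% lower. At day 7 DUOX2 and DUOXA2 were past it lower, against 5.29% of 9845 genes higher and 3.14% lower. At day 9 the same 2 members were past it lower, against 3.81% of 9731 genes higher and 3.91% lower. Between day 9 and day 2 in WT, DUOX2 was past 2-fold higher and DUOX1 and DUOXA1 lower, where 9.43% of 9775 genes were higher and 6.57% lower. Between the same days in CF, DUOX1 and DUOXA1 were past it lower and no member higher, where 7.26% of 9634 genes were higher and 3.23% lower. The median log2 difference of the members between CF and WT was 0.10, 0.01, -1.07 and -0.76 at days 2, 5, 7 and 9, beside -0.01, -0.05, 0.13 and 0.08 over all genes tested.

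UMIs of the maturation factor per UMI of its oxidase, which are counts of 3′ tags and not a ratio of molecules of protein, separated the 2 pairs. The WT libraries had 0.363 to 0.451 DUOXA1 UMIs per DUOX1 UMI, and the CF libraries 0.280 to 0.365. DUOXA2 per DUOX2 UMI was 4.23 (3.94 to 4.54) at WT day 2, 3.32 at day 5, 3.06 at day 7 and 1.58 (1.51 to 1.66) at day 9. In CF it was 1.79, 1.18, 1.35 and 1.62, so the 4 CF libraries and WT day 9 lay below the other 3 WT libraries.

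The deposited cell table placed WT and CF cells in separate clusterings of 41 and 30 clusters, of which 39 and 29 with at least 50 cells were used. The clusters were built from the same counts, so their levels are descriptions. DUOX1 was spread broadly, from 12.3 CPM in WT cluster 17 to 84.1 in WT cluster 20 with a median of 39.5 CPM, and from 7.43 in CF cluster 7 to 96.1 in CF cluster 20 with a median of 48.3 CPM. It reached 20 CPM in 35 of 39 WT and 24 of 29 CF clusters. Cells of WT cluster 20 were shallow, with a median of 3397.5 UMIs. Its DUOX1 level was not apart from the 79.4 CPM of WT cluster 4 beyond counting error (ratio 1.06, 0.898 to 1.24). DUOXA1 ran from 4.61 to 29.4 CPM in WT clusters and from 3.36 to 28.3 CPM in CF clusters, the lowest in CF cluster 13 with a median of 1018 UMIs a cell.

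DUOX2 and DUOXA2 were concentrated instead. DUOX2 was under 5 CPM in 22 of 39 WT and 18 of 29 CF clusters, with medians of 2.77 and 2.83 CPM, and the 5 clusters with the most DUOX2 UMIs held 61.5% of them in WT with 14.1% of the cells and 70.5% in CF with 18.9% of the cells. For DUOXA2 the top 5 clusters held 65.9% of UMIs in WT with 16.8% of cells and 77.9% in CF with 18.9% of cells. The 90th percentile of cluster levels was 3.33 times the 10th for DUOX1 in WT and 5.92 times in CF, 58.9 and 107 times for DUOX2, and 94.4 and 160 times for DUOXA2. DUOX2 had no UMI in WT cluster 38 and CF clusters 13 and 27, which allows levels of up to 14.6, 5.03 and 3.23 CPM.

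**Figure D2:**
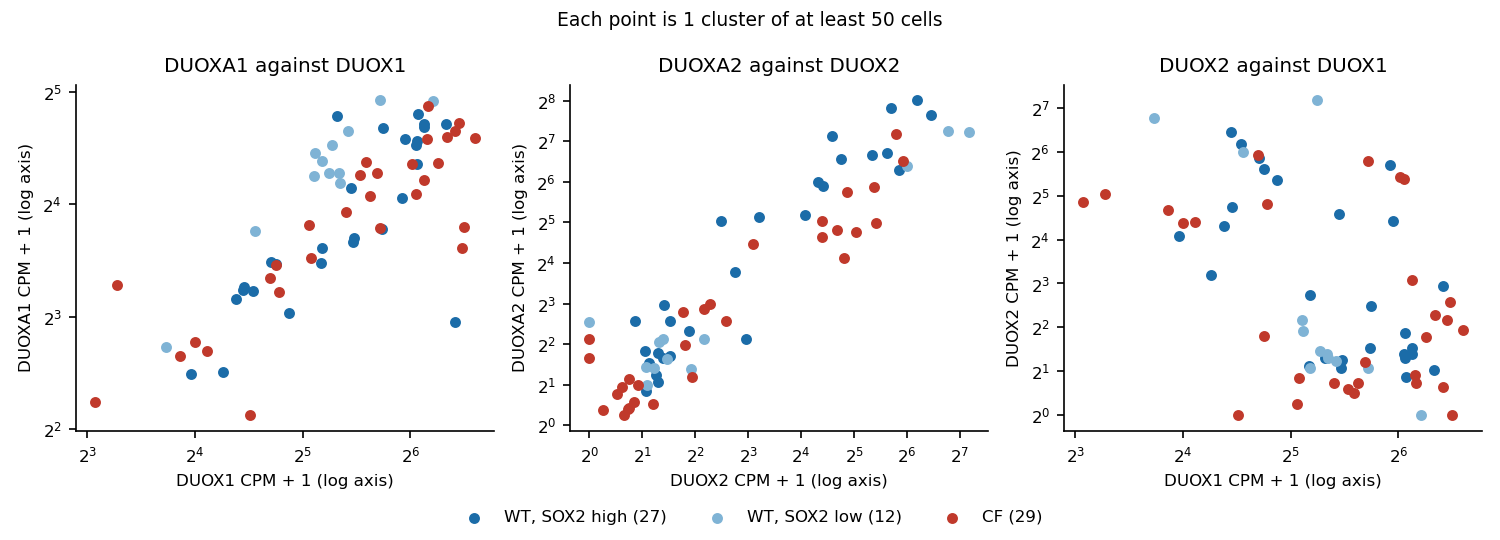
Level of each maturation factor against its oxidase, and of DUOX2 against DUOX1, in the 39 WT and 29 CF clusters of at least 50 cells, each point 1 cluster coloured by genotype and SOX2 level, in CPM + 1 on log axes. DUOX1 and DUOXA1 levels span a narrow range, while DUOX2 and DUOXA2 lie along a line over more than 2 orders of magnitude.

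Across clusters the oxidase and its own factor followed each other. Pearson's r of log2 CPM was 0.94 over both the 39 WT and the 29 CF clusters for DUOX2 with DUOXA2, and 0.73 and 0.85 for DUOX1 with DUOXA1. The 4 pairings across the groups had r of -0.61 to -0.38. Clusters share libraries and differ in depth, so these are descriptions. DUOXA2 per DUOX2 UMI was 1.35 to 6 with a median of 2.94 in 10 WT clusters with high SOX2, 1.04 to 1.40 with a median of 1.31 in 3 WT clusters with low SOX2, and 0.611 to 2.65 with a median of 1.40 in 9 CF clusters, counting clusters with at least 100 DUOX2 UMIs.

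The highest DUOX2 levels, pooled over days, came from clusters with different leading genes. WT cluster 33, at 143 CPM, was labelled ductal and led by EPSTI1, TRIM22, IFIT3 and ISG15, genes of the interferon response. Of its 166 cells 130 were from day 2, where its DUOX2 level was 20.0 CPM (15.0 to 26.1), and 33 were from day 9, where the level was 818 CPM (741 to 902) from 407 UMIs. These 33 cells thus held 87.3% of the cluster's DUOX2 UMIs and 14.4% of those of the WT day 9 library, and their DUOXA2 level was 760 CPM (685 to 840). Without cluster 33 the WT day 9 level of DUOX2 was 28.7 CPM in place of 33.3 CPM.

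WT cluster 17, at 108 CPM, was also labelled ductal and led by TFF2, TFF1, BPIFB1 and LTF, genes of secreted mucosal proteins, with 406 of its 603 cells from day 9. Its level was 104 CPM at day 7 and 107 CPM at day 9. WT cluster 21, labelled progenitor, followed at 86.7 CPM, and WT cluster 1 at 71.6 CPM. The class of WT cluster 1 was not kept, on 1 marker of another class and 0 of its own among its 10 leading genes. Among CF clusters of at least 50 cells the highest value was 59.6 CPM in cluster 25, labelled progenitor and led by PI3, S100A4, MUC5B and LYZ, with 169 of its cells from day 5. CF cluster 4 was at 54.5 CPM, not apart from it beyond counting error (ratio 1.09, 0.976 to 1.23), labelled progenitor with SCGB1A1 and IFIT3 among its leading genes and 613 of its cells from day 2. The top DUOXA2 clusters overlapped with these, with WT cluster 1 at 256 CPM, WT cluster 13 at 225, WT cluster 21 at 200, CF cluster 4 at 145 and CF cluster 25 at 90.7 CPM.

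The clusters that held most DUOX2 UMIs differed between some days, while WT days 5 and 7 had the same leading cluster. At WT day 2, cluster 13 held 76.4% of DUOX2 UMIs with 11.0% of the cells and 80.6% of DUOXA2 UMIs. At WT day 5, cluster 1 held 42.3% of DUOX2 and 51.1% of DUOXA2 UMIs with 10.4% of the cells. At WT day 7 it held 38.0% of DUOX2 UMIs with 8.27% of the cells and 42.1% of DUOXA2 UMIs, at 119 and 404 CPM. At WT day 9, clusters 17 and 21 held 24.6% and 18.5% of DUOX2 UMIs, the first labelled ductal and the second progenitor. At CF day 2, clusters 4, 8 and 9 held 37.5%, 33.1% and 20.5% of DUOX2 UMIs, and cluster 4 held 56.4% of DUOXA2 UMIs. At CF day 5, cluster 25 held 40.3% with 6.15% of the cells. At CF day 7, the highest share was 30.2% in cluster 19 at 17.9 CPM, and at CF day 9 cluster 7 held 57.9% of DUOX2 and 67.6% of DUOXA2 UMIs with 19.0% of the cells, at 28.6 and 53.9 CPM.

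By deposited class, leaving out 13 clusters by their leading genes or depth, DUOX2 and DUOXA2 had their highest values in cells labelled centroacinar progenitor (progenitor for short), compared with ductal and centroacinar cells, except as given for DUOX2 at CF day 9. Among the clusters left out, WT cluster 1 and CF clusters 8, 9 and 19 had 1 marker of another class and 0 of their own among their 10 leading genes. DUOX2 in WT progenitor cells was 49.1, 26.6, 26.9 and 55.5 CPM at days 2, 5, 7 and 9, and in CF progenitor cells 53.2, 42.5, 15.9 and 23.0 CPM. At CF day 9, 2 of the 180 progenitor cells, 1 of cluster 4 and 1 of cluster 25, held 21 of 96 DUOX2 and 52 of 167 DUOXA2 UMIs. Without them DUOX2 was 18.2 CPM (14.3 to 22.8) and DUOXA2 27.9 CPM (23.0 to 33.5), so the DUOX2 value was then below that of CF ductal cells, with overlapping intervals. In WT ductal cells it was 2.51, 2.96, 8.93 and 35.0 CPM, the last 23.1 CPM without cluster 33, and in CF ductal cells 4.0, 3.16, 1.41 and 21.0 CPM. The last came from 51 cells, of which 18 cells of CF cluster 29 held 24 of the 25 DUOX2 UMIs, and the other 33 cells were at 0.990 CPM. CF cluster 29, 47 cells over all days, had a median depth 0.458 of that of its libraries and 15.4% mitochondrial UMIs. It had 0 ductal markers among its 10 leading genes, and its first, LOC123388620, also led the shallow CF cluster 21, which was left out. Centroacinar WT cells at days 5, 7 and 9 had 22.8, 19.5 and 21.4 CPM of DUOX2, and CF ones at days 2, 5, 7 and 9 had 1.11, 8.26, 1.32 and 10.9 CPM. DUOXA2 in progenitor cells was 221, 90.2, 119 and 118 CPM in WT and 143, 61.3, 23.6 and 40.0 CPM in CF, and in ductal cells 8.50, 5.79, 15.9 and 35.4 CPM in WT and 7.70, 4.17, 1.06 and 15.97 CPM in CF, the last with 19 of 19 UMIs in the same 18 cells. In centroacinar cells DUOXA2 was 65.2, 37.2 and 43.9 CPM at WT days 5, 7 and 9 and 0.487, 5.28, 1.22 and 20.4 CPM at CF days 2, 5, 7 and 9.

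The CF ductal values depended on which clusters were counted. With each cluster under its deposited name, which adds CF clusters 8, 9 and 19 among others, DUOX2 in CF ductal cells was 19.4, 5.46, 10.4 and 27.5 CPM. At CF day 9 the ductal level was then above the 23.9 CPM of progenitor cells. WT progenitor cells, which then include cluster 1, had 39.05 and 51.1 CPM at days 5 and 7.

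Between days 2 and 9 the classes were led by different clusters, and the day 9 levels of WT ductal, CF ductal and CF centroacinar cells came mostly from 1 or 2 clusters each. In WT ductal cells DUOX2 at day 9 was 13.9 times the day 2 level (11.9 to 16.3), but clusters 17 and 33 held 95.2% of the day 9 UMIs and the other 1562 ductal cells were at 2.15 CPM (1.62 to 2.79). At day 2 the ductal cells outside cluster 33, which held the most UMIs then, were at 1.86 CPM (1.56 to 2.21). In CF centroacinar cells the ratio was 9.83 (5.98 to 17.4), with 405 of 419 day 9 UMIs in cluster 7 and the other 1170 cells at 0.581 CPM (0.318 to 0.975). At day 2 the cells outside its leading cluster, CF cluster 20 with 10 of 16 UMIs, were at 0.563 CPM (0.207 to 1.23). In progenitor cells it was 1.13 in WT (1.02 to 1.26) and 0.432 in CF (0.346 to 0.535), where WT cluster 13 and CF cluster 4 made up 95.9% and 99.8% of the cells at day 2, and WT cluster 21 and CF cluster 18 led at day 9 with 54.4% and 77.2%. Without the 2 cells named above the CF progenitor ratio was 0.341 (0.266 to 0.433). In CF ductal cells it was 5.25 (3.29 to 8.04) with the 18 cells of cluster 29 counted, or 1.41 (1.2 to 1.66) under the deposited names, and the interval of the 33 other cells of day 9, 0.0251 to 5.51 CPM, included the 4.0 CPM of the class at day 2. DUOXA2 at day 9 was 4.16 times the day 2 level in WT ductal cells, with 97.0% of the day 9 UMIs in clusters 17 and 33, and 0.533 times in WT progenitor cells. In CF it was 2.07 times (1.23 to 3.30) in ductal, 41.8 times (20.2 to 104) in centroacinar and 0.280 times (0.237 to 0.327) in progenitor cells. The centroacinar ratio had 7 UMIs at day 2, and CF cluster 7 held 763 of the 780 UMIs at day 9.

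In the kept clusters the values of DUOX2 and DUOXA2 were lower in CF than in WT at days 7 and 9 within each of the 3 classes, but several rest on few cells. At day 7 the CF to WT ratio of DUOX2 was 0.0678 (0.0437 to 0.101) in centroacinar cells, 0.158 (0.0429 to 0.408) in ductal cells and 0.590 in progenitor cells, and at day 9 it was 0.512, 0.599 and 0.414, in the same order of classes. The day 7 centroacinar value has 18 of 27 CF UMIs in 31 cells of clusters with under 50 cells in that library, and was 0.0226 (0.0102 to 0.0437) without such clusters of either genotype. The day 9 ductal value of 0.599 (0.386 to 0.889) was 0.910 (0.585 to 1.35) without the 33 cells of WT cluster 33, with an interval that included 1, and 0.0282 without the 18 cells of CF cluster 29. Without both clusters it was 0.0429 (0.00108 to 0.240). The day 9 progenitor value was 0.327 (0.254 to 0.416) without the 2 cells of CF clusters 4 and 25. For DUOXA2 the ratios were 0.0329, 0.0669 and 0.198 at day 7 and 0.465, 0.451 and 0.340 at day 9, where the ductal value was 0.657 (0.393 to 1.03) without WT cluster 33 and the progenitor value 0.237 (0.194 to 0.287) without the 2 cells. Without CF cluster 29 the ductal DUOXA2 ratio was 0 (0 to 0.103), and without both WT cluster 33 and CF cluster 29 it was 0 (0 to 0.151). Under the deposited names the ductal ratios at day 7 were 1.16 (0.876 to 1.51) for DUOX2 and 0.850 (0.669 to 1.07) for DUOXA2, with intervals that included 1, while centroacinar and progenitor cells had DUOX2 ratios of 0.0518 and 0.311. At day 9 the ductal ratios under those names were 0.795 (0.674 to 0.933) and 0.786 (0.666 to 0.923).

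At day 2 the CF to WT ratio of DUOX2 was 1.59 (1.28 to 1.98) in ductal cells of kept clusters and 7.70 (6.61 to 9.02) under the deposited names, and 1.08 in progenitor cells with an interval of 0.98 to 1.2 that included 1. The 2 genotypes were clustered apart, so different clusters made up each class. The leading centroacinar clusters were WT clusters 7 and 12 against CF clusters 0 and 5 at day 5, and WT clusters 12 and 16 against CF clusters 16 and 3 at day 7.

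DUOX1 was ordered otherwise among the classes. In WT it was 65.2, 38.8, 37.3 and 30.5 CPM in ductal cells and 60.8, 27.6, 26.9 and 14.7 CPM in progenitor cells, and in CF 80.2, 34.5, 23.0 and 23.5 CPM and 52.5, 20.9, 16.9 and 10.5 CPM. Progenitor-labelled cells, highest in DUOX2 with the limits given for CF day 9, thus had lower DUOX1 values than ductal cells in all 8 libraries. The intervals overlapped at WT day 2 (56.9 to 64.8 against 63.4 to 67.0 CPM) and at CF day 7 (13.9 to 20.3 against 17.7 to 29.3 CPM). CF centroacinar cells had 87.2, 43.3, 39.2 and 23.6 CPM, and WT ones 28.3, 32.5 and 18.2 CPM at days 5, 7 and 9. DUOXA1 was 25.3, 16.3, 16.3 and 15.2 CPM in WT ductal cells and 16.3, 8.32, 9.97 and 7.73 CPM in WT progenitor cells. It was 23.6, 12.7, 9.54 and 9.24 CPM in CF ductal and 12.7, 8.20, 4.89 and 4.55 CPM in CF progenitor cells.

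**Figure D3:**
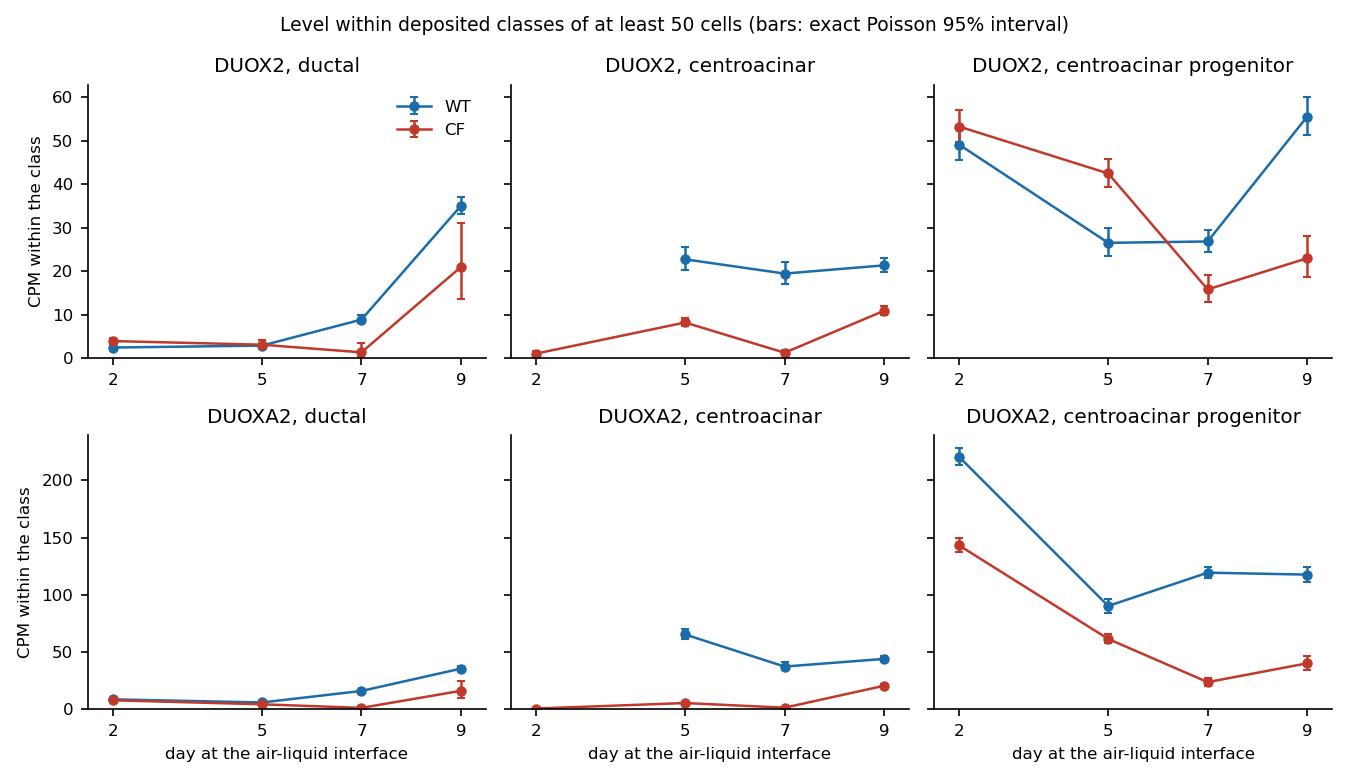
Level of DUOX2 and DUOXA2 in CPM (vertical axis) by day at the air-liquid interface (horizontal axis, days) in cells labelled ductal, centroacinar and centroacinar progenitor of the WT and CF libraries, with exact Poisson 95% intervals as bars. DUOX2 in WT ductal cells stands at 2.51 CPM at day 2 and 35.0 CPM at day 9, and CF centroacinar cells at day 7 have 1.32 CPM. Clusters left out by their leading genes or depth, as in the text, are not included.

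SOX2, a transcription factor of foregut epithelium, divided the WT clusters. It was 50.6 to 205 CPM in 27 WT clusters and 0.806 to 4.87 CPM in 12 others, and it was at most 1.08 CPM in the 29 CF clusters. The 12 low clusters held 14.3%, 33.8%, 27.5% and 27.9% of WT cells at days 2, 5, 7 and 9. DUOX2 in these SOX2-low WT cells was 4.56, 5.02, 14.6 and 54.0 CPM, so day 9 was 11.8 times day 2 (9.27 to 15.4). Clusters 17, 33 and 30 held 97.1% of the day 9 UMIs of SOX2-low cells, and the other 925 of 1510 cells were at 2.62 CPM (1.88 to 3.55), while cluster 33 held 54 of 67 UMIs at day 2. In SOX2-high WT cells it was 9.10, 19.6, 28.5 and 24.3 CPM, or 2.67 times (2.45 to 2.90). SOX2-low cells held 49.4% of DUOX2 UMIs at WT day 9. Without cluster 33, which is SOX2-low, their day 9 level was 39.02 CPM.

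Set against SOX2-low WT cells alone, CF cells had 4.51, 3.02, 0.397 and 0.259 times their DUOX2 at days 2, 5, 7 and 9. DUOXA2 in SOX2-low WT cells was 6.88, 9.76, 25.6 and 55.3 CPM and in SOX2-high cells 40.3, 71.1, 97.2 and 51.6 CPM. The CF to WT ratio of DUOXA2 at day 5 was therefore 1.84 against SOX2-low cells and 0.417 against all WT cells, on opposite sides of 1, and it was 5.35 in place of 1.02 at day 2 and 0.306 in place of 0.108 at day 7. DUOX1 day 9 was 0.559 of day 2 in SOX2-low and 0.310 in SOX2-high WT cells, and DUOXA1 was 0.622 and 0.332. DUOXA1 in CF was 0.490 of its level in SOX2-low WT cells at day 9, in place of 0.774 of all WT cells. The part that SOX2-high cells, which CF clusters lacked, have in the genotype differences was not tested beyond these values.

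**Figure D4:**
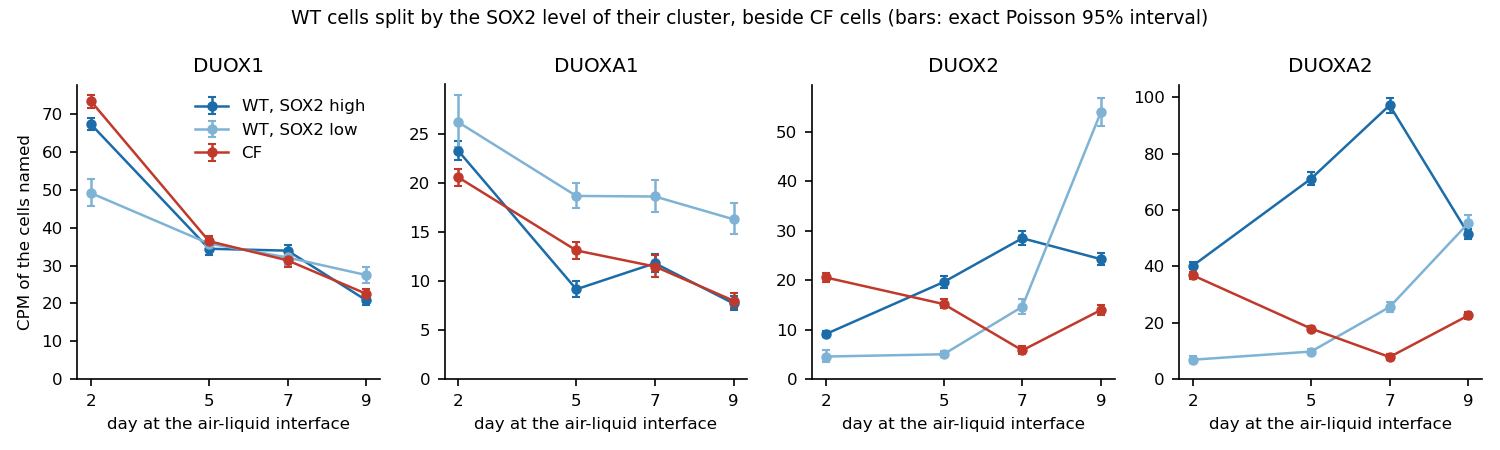
Level of the 4 genes in CPM (vertical axis) by day at the air-liquid interface (horizontal axis, days) in WT cells of clusters with high SOX2, WT cells of clusters with low SOX2 and CF cells, with exact Poisson 95% intervals as bars. SOX2-low WT cells reach 54.0 CPM of DUOX2 and 55.3 CPM of DUOXA2 at day 9, above the CF cells of that day.

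In single cells thinned to 3000 UMIs each, so that depth was equal, DUOX1 was found in 17.2%, 10.3%, 8.07% and 6.25% of WT cells at days 2, 5, 7 and 9 and in 19.7%, 10.5%, 10.0% and 6.84% of CF cells. Without thinning the WT shares of DUOX1 were 62.9%, 42.9%, 40.1% and 26.8%, and the CF shares 71.1%, 53.6%, 39.8% and 31.9%. DUOX2 was found in 2.02%, 2.80%, 5.57% and 6.59% of thinned WT cells and 4.55%, 3.70%, 1.76% and 3.05% of thinned CF cells, in the same order as its CPM within each genotype. The WT shares of DUOX2 before thinning were 7.65%, 9.33%, 15.1% and 16.1%, and the CF shares 19.9%, 14.8%, 5.04% and 11.2%. DUOXA1 was found in 2.73% to 7.13% of thinned cells and DUOXA2 in 0.836% to 11.0%.

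Free RNA in the droplets sets a floor to such shares, and no cell type known to lack these genes was present. Shares are therefore given for clusters at the low and high ends of the CPM range, picked by CPM and not by share. DUOX2 was found in 0.292% of cells of WT cluster 26 and in 0 of 401 cells of CF cluster 11, which allows up to 0.748%. The clusters with the highest CPM, pooled over days, had 21.7% in WT (cluster 33) and 13.2% in CF (cluster 25). By share, CF cluster 9 with 53 of 395 cells and CF cluster 4 with 83 of 624 were slightly above CF cluster 25 with 26 of 197. The median depths before thinning were 19403 UMIs in WT cluster 26, 17513 in WT cluster 33, 24106 in CF cluster 11 and 39724 in CF cluster 25. In clusters picked in the same way, DUOXA2 was at 0.190% in WT cluster 2 and 35.8% in WT cluster 1 and at 0.137% in CF cluster 1 and 22.4% in CF cluster 4, with median depths of 14254, 17505.5, 13072 and 21206.5 UMIs in that order. DUOX1 had the highest shares among the low-end clusters, 2.21% in WT cluster 17 and 1.83% in CF cluster 7, the clusters where DUOX2 was among the highest. A library's share is an average over its clusters and so lies above the lowest by construction, and how much of it is free RNA was not tested.

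DUOXA2 was found more often in cells with DUOX2 than in cells without it. Of thinned cells with a DUOX2 UMI, 36.3%, 58.6%, 58.7% and 46.0% had a DUOXA2 UMI at WT days 2, 5, 7 and 9, against 4.49%, 6.02%, 8.15% and 6.22% of cells without DUOX2. In CF the shares were 28.6%, 19.0%, 14.3% and 24.6% against 4.30%, 2.57%, 0.596% and 2.91%, with 3 of 21 cells at day 7. The ratio of the shares was 6.65 to 24.0 over the 8 libraries with a geometric mean of 8.96. Compared with cells of the same clusters the ratio was 1.60 to 5.24 with a geometric mean of 2.89, with clusters compared within each library. Among clusters with at least 20 CPM of DUOX2, 17 combinations of a cluster and a library had at least 20 cells with a DUOX2 UMI, and the ratio was above 1 in 16 of them, from 0.54 in CF cluster 9 at day 2 to 4.88 in WT cluster 17 at day 9, with a median of 2.64.

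DUOXA1 in cells with against without DUOX1 had smaller ratios, from 0.698 to 2.27 with a geometric mean of 1.21, or 1.07 within the same clusters. At 8000 UMIs a cell the geometric mean was 1.25, and the intervals with and without DUOX1 were apart at WT day 9 (10.8%, 8.70 to 13.1, against 6.57%, 5.84 to 7.36) and CF day 5 (14.5%, 11.9 to 17.4, against 9.29%, 8.05 to 10.7). DUOXA2 with DUOX1 had ratios of 0.10 to 1.14 with a geometric mean of 0.692, which was 1.11 (0.179 to 3.03 over the libraries) within the same clusters and 1.06 without thinning, both on the other side of 1. DUOXA1 with DUOX2 had ratios of 0 to 1.17, and DUOXA2 with DUOXA1 of 0 to 1.1. At 8000 UMIs their geometric means were 0.745 and 0.670, or 1.09 and 1.01 within the same clusters.

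The values for the 2 oxidases depended on depth and on the cells compared. Of thinned cells with a DUOX1 UMI, 2.17% at WT day 2 and 4.55% at WT day 9 also had DUOX2, which was 1.09 and 0.676 times the share among cells without DUOX1 and 1.16 and 1.01 times that of cells of the same clusters. At CF day 9 it was 0 of 155 cells, and at 8000 UMIs 13 of 366 cells, 0.495 times the share without DUOX1 and 1.28 times that of the same clusters. The geometric mean over the libraries at 8000 UMIs was 0.748, and 1.14 within the same clusters. At 3000 UMIs a cell a missing UMI does not show a missing transcript.

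**Figure D5:**
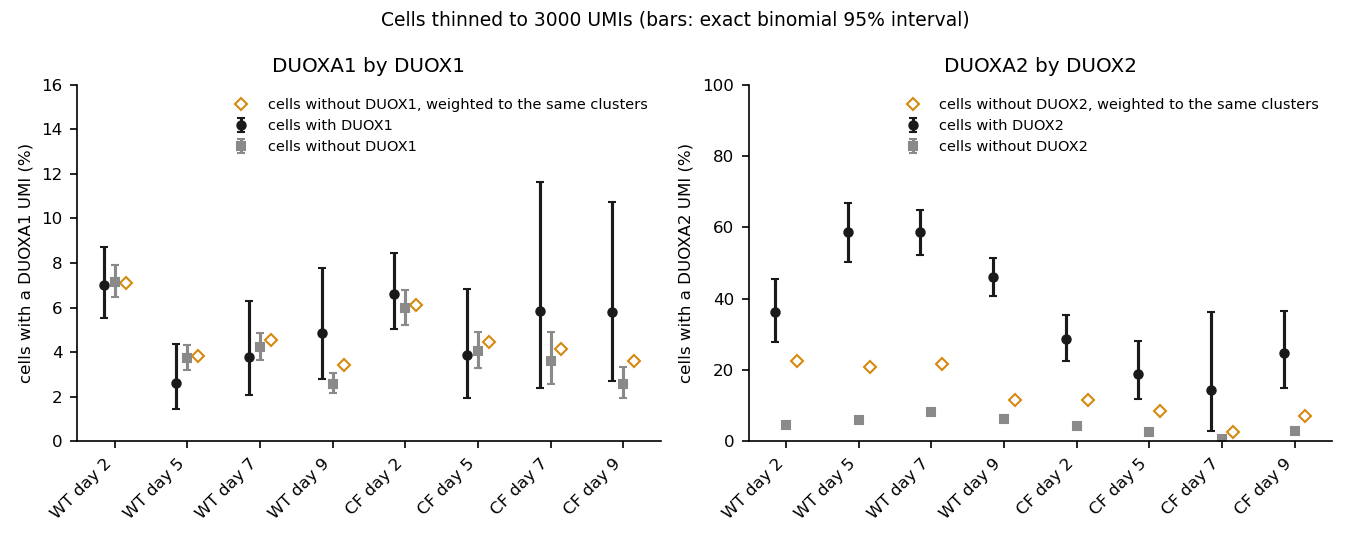
Percent of cells with a maturation factor UMI (vertical axis) among cells with and without a UMI of the oxidase in each of the 8 libraries (horizontal axis), after thinning each cell to 3000 UMIs, with exact binomial 95% intervals as bars and open diamonds for cells without the oxidase weighted to the clusters of the cells with it. DUOXA2 is found in 14.3% to 58.7% of cells with DUOX2 and in 0.596% to 8.15% of cells without it.

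Within a library, DUOX2 and DUOXA2 UMIs sat in few cells. The 1% of cells with the most UMIs held 18.2% to 55.5% of all DUOX2 UMIs and 24.8% to 67.3% of DUOXA2 UMIs, against 5.19% to 10.3% for DUOX1 and 7.47% to 15.3% for DUOXA1. The highest count of DUOX2 in 1 cell was 85 UMIs at WT day 9, where 58 cells had at least 10, and the highest of DUOX1 in any cell was 13 UMIs.

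Along the deposited pseudotime lineages, 15 in WT and 13 in CF, each divided into 5 bins, DUOX1 was lower in the last bin than in the first in 15 of 15 WT and 12 of 13 CF lineages, with median ratios of 0.500 and 0.521. DUOXA1 was likewise lower in the last bin in the same numbers of lineages, with medians of 0.866 and 0.730. DUOX2 was higher in the last bin in 14 of 15 WT lineages, with a median ratio of 1.72 and a highest of 67.0, and in 6 of 13 CF lineages, with a median of 0.758 and a highest of 55.8. DUOXA2 was higher at the end in 11 of 15 WT and 12 of 13 CF lineages. The first bins were low, at 0.928 to 1.32 CPM of DUOX2 in WT and 0.580 to 1.13 CPM in CF. For DUOXA2 they were at 2.25 to 3.30 CPM in WT and 0.209 to 0.558 CPM in CF. The last bins of DUOXA2 ran from 0.989 to 237 CPM in WT and from 0.421 to 74.5 CPM in CF, so some of these ratios compare very low levels. Lineages of a genotype share cells and were built from these counts, and some last bins of DUOX2 in CF held 3 to 11 UMIs.

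The genes whose cluster levels were most like each member were ranked among 9971 genes by the lower of the r over WT clusters and the r over CF clusters. DUOX2 and DUOXA2 were each other's nearest gene, at 0.94. After its factor, DUOX2 was most like LOC101693702 at 0.91 and ESYT3, PGAP6 and NOSTRIN at 0.90. DUOXA2 was next most like SLC5A1 (the sodium-glucose cotransporter) at 0.92 and MUC16 (a membrane mucin), PGAP6 and RAB11FIP1 at 0.90. DUOX1 was most like AK4 at 0.87, CD109 at 0.84, PLEKHO2 at 0.81, CLPB at 0.80 and SYTL1 at 0.79, with DUOXA1 at rank 40. DUOXA1 was most like HAS3, a hyaluronan synthase, at 0.84, FERMT1 at 0.83, NFIC and YBX3 at 0.81 and PHB2 at 0.80, with DUOX1 at rank 28.

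Genes around the dual oxidases were taken as fixed lists, and a gene was used where it reached 5 CPM in a library. CYBB, CYBA and SAA1 had no row under these symbols among the genes counted, so their levels are not known here. Over all genes tested, 4.46%, 2.48%, 5.29% and 3.81% were past 2-fold higher in CF at days 2, 5, 7 and 9. The shares past 2-fold lower were 4.55%, 4.57%, 3.14% and 3.91%. The lists are short, so their counts are descriptions. Of 13 other NADPH oxidase genes and subunits 3 were used, and RAC2, a small GTPase of the phagocyte oxidase, was the 1 past 2-fold in any genotype comparison, higher in CF at day 5 at 13.0 CPM against 5.69 CPM. RAC1, its widely expressed relative, was at 290, 302, 332 and 308 CPM in WT and 272, 263, 287 and 283 CPM in CF. NOXA1, an activator of NOX1, stood at 20.5, 20.7, 22.0 and 18.5 CPM in WT and 16.05, 19.2, 18.4 and 14.8 CPM in CF. Of 11 peroxidases and anion carriers 2 were used. ANO1, a calcium-activated anion channel, was at 61.4, 69.9, 58.1 and 83.9 CPM in WT and 70.6, 82.1, 74.9 and 72.0 CPM in CF, and CFTR was past 2-fold lower in CF at days 2 and 9. Lactoperoxidase (LPO) was at most 0.0944 CPM in any library, a gene named here after its values were seen.

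Of 17 genes for the removal of hydrogen peroxide and superoxide 15 were used, with 1 past 2-fold higher and 3 lower in CF at days 2, 7 and 9 and 0 and 1 at day 5. The peroxiredoxin PRDX2 was at 215, 112, 118 and 97.9 CPM in WT and 33.2, 23.6, 30.9 and 32.7 CPM in CF. PRDX6 was at 187, 109, 145 and 118 CPM in WT and 73.9, 65.5, 53.3 and 44.1 CPM in CF. PRDX1 lay the other way, at 638, 717, 694 and 819 CPM in WT and 2268, 1339, 1285 and 1339 CPM in CF, and was the gene past 2-fold higher at day 2. At days 7 and 9 that gene was CAT (catalase), named here after its values were seen. CAT was at 6.56, 11.8, 11.9 and 11.3 CPM in WT and 13.1, 18.1, 26.0 and 26.6 CPM in CF. Of 7 partners and peroxide channels 5 were used, with 0, 1, 0 and 2 past 2-fold higher in CF at days 2, 5, 7 and 9 and none lower. AQP3, a channel that passes hydrogen peroxide, was at 376, 194, 165 and 67.9 CPM in WT and 675, 500, 274 and 147 CPM in CF, lower at each later day in both, as DUOX1 was in CPM. EGFR, a growth factor receptor, was at 182, 232, 209 and 185 CPM in WT and 248, 341, 410 and 402 CPM in CF, and its ligand TGFA at 3.39, 5.53, 4.29 and 4.72 CPM in WT and 3.64, 3.76, 3.11 and 3.92 CPM in CF.

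Of 8 epithelial genes often induced beside DUOX2 4 were used, with 1, 1, 1 and 0 past 2-fold higher in CF and 2, 2, 3 and 3 lower at days 2, 5, 7 and 9. CXCL8, a neutrophil chemokine, was at 1.61, 3.93, 4.24 and 11.3 CPM in WT and 0.244, 0.0839, 0.0288 and 0.740 CPM in CF. CCL20, a lymphocyte chemokine, was at 50.9, 7.96, 10.5 and 2.72 CPM in WT and 4.91, 4.39, 0.720 and 0.420 CPM in CF. LTF (lactoferrin) was at 0.0175, 4.54, 11.5 and 116 CPM in WT and 2.65, 61.8, 122 and 112 CPM in CF. In WT, CXCL8 and LTF had their highest value at day 9, as DUOX2 did, while CCL20 had its highest at day 2.

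Of 11 cytokine receptors and factors that raise DUOX genes in other epithelia all 11 were used, with 1, 0, 0 and 0 past 2-fold higher in CF and 0, 1, 2 and 2 lower at the 4 days. NFKBIZ, an inducible NF-kB cofactor, was at 134, 149, 137 and 153 CPM in WT and 88.1, 63.4, 58.8 and 59.9 CPM in CF. IFNGR2, a chain of the interferon-gamma receptor, was at 230, 265, 302 and 293 CPM in WT and 158, 136, 123 and 126 CPM in CF, and IFNGR1, the other chain, at 59.7, 140, 134 and 205 CPM in WT and 155, 212, 187 and 254 CPM in CF. Apart from LPO and CAT, the genes named were those with the widest mean difference between genotypes in their list.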

How the data were processed

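Per the labels and the study's methods, the authors aligned reads with Cell Ranger 5.0.1 to ferret assembly ASM1176430v1.1 with an improved annotation, filtered cells in Seurat (R 4.1.2) on genes detected and mitochondrial share, removed doublets with DoubletFinder, merged libraries without batch correction, clustered WT and CF cells apart, named clusters with clustifyr and fitted lineages with slingshot. The deposited matrices held UMI counts per gene and barcode. The deposited cell table gave the percent of mitochondrial counts of each cell (at most 19.9917), its cluster and its class, and a separate deposited table held a pseudotime score per lineage. A deposited normalized table and the cell cycle calls were not used here, and no doublet caller was run again.

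UMIs were summed over the cells of a library, class or cluster and divided by their total (CPM, all genes). Of the 32945 cells of the table, 32868 had totals in the matrices equal to the table's within 0.1%. Levels have exact Poisson, shares exact binomial (Clopper-Pearson) and ratios exact conditional binomial 95% intervals, and a count of 0 allows up to 3 counts. Clusters described singly had at least 50 cells, while sums over a class of at least 50 cells include smaller clusters. A deposited class name was dropped where another class had more markers than its own among the cluster's top 10 genes, which 1 against 0 could decide. It was also dropped where the median depth was under 0.333 of its library's with none of its own markers leading. Other names were kept, also where no marker of any class was among the top 10. SOX2-low clusters had under 10 CPM of SOX2. Cells were thinned to 3000 UMIs by seeded sampling, leaving out shallower cells.

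Named genes were the 4 members, the 3 genes of each list with the widest mean CF to WT difference, and the 5 genes most like each member over clusters, among genes with at least 10 CPM in 1 cluster of each genotype. LPO and CAT were named in addition, after their values were seen. The members and lists were chosen with earlier results of these data known. Alternatives were TMM (edgeR 4.0.16) and DESeq2 1.42.0 size factors, all barcodes, cells of at least 3000 UMIs, equal class weights (every cluster under its deposited name), SOX2-low WT cells, other level minimums (1 and 20 CPM) and a pseudocount of 5 CPM, other thinning (8000 UMIs or none), and deposited class names. Calculations used Python 3.11.15, NumPy 2.4.6, SciPy 1.17.1, pandas 2.3.3, matplotlib 3.10.9 and R 4.3.3, and the interval and thinning code was tested on simulated data.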

Additional observations from a re-analysis of the deposited data

Results flagged for a closer look

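Summed over whole libraries, DUOX2 differed between the genotypes in the direction of its course: the day 9 level was 3.91 times the day 2 level in WT and 0.679 times in CF, and DUOXA2 was 1.46 times in WT and 0.614 times in CF. With equal weight for each deposited class of at least 50 cells at both days, chosen after seeing the data for these ratios, DUOX2 was 1.71 times in WT and 0.844 times in CF, and DUOXA2 was 0.659 times in WT, on the other side of 1, and 0.520 times in CF. The WT values average ductal and progenitor cells only, without the centroacinar cells that were 43.6% of WT day 9. The CF values also include centroacinar cells, so the genotypes average different classes. Both count every cluster under its deposited name, unlike the values of kept clusters that follow. Within classes of kept clusters the CF ratio of DUOX2 was 5.25 (3.29 to 8.04) in ductal, 9.83 (5.98 to 17.4) in centroacinar and 0.432 (0.346 to 0.535) in progenitor cells. In WT it was 13.9 (11.9 to 16.3) in ductal and 1.13 (1.02 to 1.26) in progenitor cells. Several of these rest on few cells or clusters, as given above. With 1 library a group the difference between genotypes was not tested. The CF to WT ratio of DUOX2 lay on both sides of 1, at 2.42 and 1.17 at days 2 and 5 and at 0.245 and 0.419 at days 7 and 9, also untested, and with equal class weights the day 5 ratio was 0.867.

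The 6290 WT and 5008 CF barcodes of the matrices that the cell table left out, which entered the comparisons above only as an alternative, also held the 4 transcripts. DUOX1 was at 44.0 CPM in left-out WT and 52.5 CPM in left-out CF barcodes, DUOXA1 at 12.1 and 12.7 CPM, DUOX2 at 35.3 and 17.9 CPM and DUOXA2 at 56.2 and 24.6 CPM. They are given because those barcodes lie outside the main comparisons, and what droplets they come from was not tested.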

How the results depend on the processing

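TMM, DESeq2 size factors, all barcodes and cells of at least 3000 UMIs moved no day 9 to day 2 ratio across 1. Equal class weights, added for these ratios after seeing the data, gave 0.543 for DUOXA1, 1.71 for DUOX2 and 0.659 for DUOXA2 (on the other side of 1) in WT, and 0.237, 0.331, 0.844 and 0.520 for DUOX1, DUOXA1, DUOX2 and DUOXA2 in CF. The WT values are over ductal and progenitor cells only, and the CF values over these and centroacinar cells, with every cluster under its deposited name. Leaving out WT cluster 33, also chosen after seeing the data, gave WT ratios of 3.48 for DUOX2 and 1.34 for DUOXA2, and CF to WT ratios at day 9 of 0.487 and 0.465. For DUOX1, DUOXA1, DUOX2 and DUOXA2 in turn TMM gave WT ratios of 0.307, 0.381, 3.41 and 1.28 with CF ratios of 0.255, 0.322, 0.564 and 0.509, and DESeq2 size factors gave WT ratios of 0.314, 0.390, 3.49 and 1.31 with CF ratios of 0.261, 0.330, 0.577 and 0.521. These scalings moved the median log2 difference of all genes by -0.20 and -0.16 in WT and -0.27 and -0.24 in CF between those days, and by -0.21 and -0.16 between genotypes at day 7 and -0.13 and -0.10 at day 9.

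Among CF to WT ratios, TMM gave DUOX1 1.09, 0.816 and 0.903 at days 2, 7 and 9, DUOXA1 0.702 at day 7, DUOX2 0.384 at day 9, and DUOXA2 0.0936 and 0.392 at days 7 and 9. DESeq2 gave DUOX1 0.841 at day 7 and DUOXA2 0.399 at day 9. All barcodes gave DUOX2 0.309 and 0.383 and DUOXA2 0.140 and 0.398 at days 7 and 9. Equal class weights gave DUOX1 0.780 and 0.776 at days 7 and 9, DUOXA1 1.09, 0.666 and 0.654 at days 5, 7 and 9, DUOX2 1.43, 0.867, 0.326 and 0.552 at days 2, 5, 7 and 9 (day 5 on the other side of 1), and DUOXA2 0.757, 0.328 and 0.148 at days 2, 5 and 7. Against SOX2-low WT cells, DUOX1 was 1.49 and 0.820 at days 2 and 9, DUOXA1 0.785, 0.702, 0.616 and 0.490 and DUOX2 4.51, 3.02, 0.397 and 0.259 at days 2, 5, 7 and 9, and DUOXA2 5.35, 1.84 and 0.306 at days 2, 5 and 7 (day 5 on the other side of 1). The cause of each was not tested. Ratios whose intervals included 1 crossed it for DUOXA2 at day 2 (0.983 with TMM, 0.999 with DESeq2 and 0.757 with equal class weights) and DUOXA1 at day 5 (1.01 with DESeq2 and 1.09 with equal class weights). With cells of at least 3000 UMIs, 16 of 16 ratios moved by less than their counting intervals.

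Of genes past 2-fold (424 higher and 433 lower at day 2, 242 and 445 at day 5, 521 and 309 at day 7, 371 and 380 at day 9, 922 and 642 for WT days, 699 and 311 for CF days), genes of at least 20 CPM, a smaller set, gave 247 and 195, 121 and 205, 278 and 152, 199 and 220, 603 and 375, and 374 and 164 in that order. A pseudocount of 5 CPM gave 270 and 256 at day 2, 141 and 280 at day 5, 305 higher at day 7, 228 higher at day 9, and 426 and 193 for CF days, and genes of at least 1 CPM gave 470 lower at day 7. Co-detection ratios stayed on their side of 1 in geometric mean for DUOX2 with DUOXA2 and DUOX1 with DUOXA1, at 8.13 and 1.65 unthinned and 7.86 and 1.25 at 8000 UMIs, while DUOX1 with DUOXA2 was 0.692 at 3000 UMIs, 1.06 unthinned and 0.768 at 8000 UMIs. The 64 shares of cells under other thinning moved with depth, and 16 of 112 class levels moved under the deposited names, among them DUOX2 in CF ductal cells at day 2 (19.4 for 4.0 CPM) and day 7 (10.4 for 1.41 CPM). Leaving out clusters with under 50 cells in a library, chosen after seeing the data, moved 17 class levels beyond their counting intervals and left 91 within them. DUOX2 then was 1.46 for 2.96 CPM in WT ductal cells at day 5, 24.5 for 35.0 CPM in WT ductal cells at day 9, 0.464 for 1.32 CPM in CF centroacinar cells at day 7 and 15.6 for 23.0 CPM in CF progenitor cells at day 9.

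The genotypes were compared within each day, but no paired test over the days was made, because each genotype and day was 1 library and no replicate numbers were given. The genotype, the pool of animals and the library cannot be told apart, and depth limits the CF day 7 values most, with 202 UMIs of DUOX2. The cell table also left out 49.0% of the barcodes of that library.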
